A study of Rattus norvegicus with 7 samples.

Results

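The genes described here build, cap, cut, bundle and pull on actin filaments in NR8383 cells, a macrophage line obtained by lavage of a normal rat lung. Members were taken by gene symbol: actins, the Arp2/3 complex and its activators, formins, Vasp and Evl, monomer-binding and severing proteins, capping proteins, crosslinkers, tropomyosins, ezrin-radixin-moesin (ERM) proteins, and conventional and unconventional myosins. The rule found 107 genes and 151 probes, of 36174 gene names and 45598 probes on the array. Cells were incubated for 4 h with zinc oxide nanoparticles (ZnO NPs) of the NM110 type (group ZnO, 3 biological replicates) or without particles (group control, 4 biological replicates), in both groups without fetal bovine serum. The labels give a dose of 2 µg/mL, and the study's text names another dose, so the groups are described only as ZnO and control. RNA of each replicate was labelled with Cy3 and hybridised to its own one-colour Agilent rat array, so that 3 and 4 arrays set the precision of a difference. The cell line grows partly attached and partly floating, and both phenotypes were in the same dishes.

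Actin filaments grow from nuclei. The Arp2/3 complex, switched on by proteins of the WASP and WAVE families, starts branches on the sides of filaments, whereas formins start straight filaments and stay on their growing ends. Profilin and thymosins hold actin monomers, cofilin and coronins take filaments apart, capping proteins and gelsolin close or cut their ends, and filamins, actinins and plastins tie them together. Myosins pull on the filaments. In macrophages these proteins carry out migration, adhesion through podosomes, and the closing of the phagocytic cup around particles.

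Each probe is a DNA of 60 bases, and its letters decide which transcript is read. The first set is shown because the results turn on these probes, and all letters are in lower case. Positions are on rn4, the build in the file headers. Whether a probe lies in a coding exon or a UTR was not read here, since no rn4 annotation was used, and of Myo1e only the first 30 bases are shown.
Myo1c, chr10:63005124-63005183, plus strand: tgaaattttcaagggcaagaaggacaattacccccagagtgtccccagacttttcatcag
Myo1e, chr8:74884317-74884376, plus strand: ttcccttggtctttgcttgtaatgtggctg
Fmnl1, chr10:92383006-92383065, plus strand: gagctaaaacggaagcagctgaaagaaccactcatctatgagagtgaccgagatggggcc
Coro1a, chr1:185852895-185852954, minus strand: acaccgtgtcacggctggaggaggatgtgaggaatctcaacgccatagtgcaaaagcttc
Actb, chr12:12049595-12049654, plus strand: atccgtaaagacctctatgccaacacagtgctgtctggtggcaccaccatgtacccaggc

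The second set is shown because the probes of a pair overlap and were read differently or placed on different chromosomes. For each probe, 30 of its 60 bases are given, and capitals mark bases that the other probe of the pair lacks. The Tmsb10 probes share 43 bases and the Actg1 probes share 54.
Tmsb10 A_44_P1082209, chr4:106286057-106286116, first 30 bases: CTGCCAAATTTCACCGGtttgcccagggat
Tmsb10 A_44_P1060108, chr4:106286040-106286099, last 30 bases: gtatgattgatgaAAATAAAACACACCTCG
Actg1 A_44_P1082882, chr10:109773491-109773550, first 30 bases: GTGAGAacattaggccccagcaacacgtca
Actg1 A_44_P1098256, chr13:76953691-76953750, last 30 bases: aaagagaaataaaagtgctgcagtAAAAAA

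The array files assign 1 further probe to Tpm3 but place it on the mitochondrial chromosome, chrM:3285-3344, minus strand. It is shown because its value cannot be taken as one of Tpm3 without doubt.
Tpm3 A_44_P277834: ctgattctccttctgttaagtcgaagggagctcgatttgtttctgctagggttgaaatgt

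All 7 arrays lay on 1 slide and were scanned once, with no saturated spot among the 58717 spots that are no controls. The ZnO arrays stood in column 2 of the slide and the control arrays in column 1, which means that an effect of slide column and one of exposure cannot be told apart. Before scaling, the 75th percentile of the background-subtracted intensity lay between 980 and 1603 on the ZnO arrays and between 958 and 1489 on the control arrays, and 52.9 to 54.3% of spots on the ZnO arrays and 51.7 to 56.0% on the control arrays were well above background. Of 12 macrophage markers on the array, 10 were well above background on all arrays, among them Cd68, Csf1r and Itgam, whereas Marco was so on none. No epithelial marker passed the detection filter used for tests, and the markers well above background on every array were 5 of 15 for striated muscle, 1 of 7 for smooth muscle, 3 of 8 for fibroblasts and 2 of 8 for lymphocytes.

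Values below are log2 intensities minus the log2 of the array's own 75th percentile, called log2 units, and a value describes a probe against itself on other arrays only. Tests were limited to probes that every array of the ZnO group, of the control group or of both read as well above background. By this filter 94 of the 151 member probes and 69 of the 107 member genes were tested, 8 genes were well above background on some arrays only, and 30 on none. In the plot of detection by role, the actins and the Arp2/3 complex were tested whole (5 of 5 and 9 of 9 genes), as against 1 of 16 muscle myosin II genes and 11 of 21 unconventional myosins. Genes known from blood cells (Coro1a, Lcp1, Was, Fmnl1, Myo1f, Myo1g) were well above background on all 7 arrays. Ezr (ezrin, known from epithelium), Tpm2, Pfn2, Cttn (cortactin), Wasf1 and Myh10 were so on none.

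**Figure D1:**
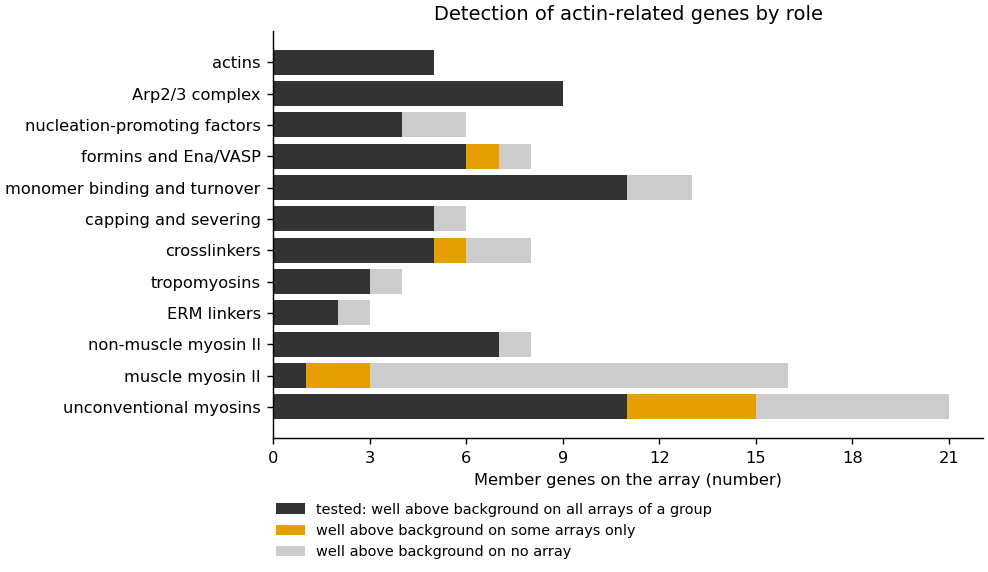
Number of member genes (x axis) in each of 12 roles (y axis), split by detection on the 7 arrays. Dark bars are the 69 genes tested, orange bars the 8 genes well above background on some arrays only and grey bars the 30 genes well above background on none, most of them muscle and unconventional myosins.

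No member changed past the threshold. Of the 94 member probes tested, 0 had an adjusted p under 0.05 (limma, Benjamini-Hochberg over 20050 probes), beside 10 of all 20050 probes, or 0.0499%, and the smallest adjusted p of a member was 0.473. At an adjusted p under 0.001 with a fold change over 1.5 the counts were 0 member probes and 4 probes of all (0.0200%). The fitted fold change of no member probe was over 1.5 in either direction, against 213 of all probes (1.06%). At an unadjusted p under 0.05, 3 member probes were higher in ZnO cells (3.19%, all probes 3.06%) and 6 were lower (6.38%, all probes 2.86%). The 3 include A_44_P1102818 of Tpm3, which passed the filter only through the ZnO arrays, where it was higher. The split turned in some settings. Without ZnO replicate 2, 5 were higher and 2 lower, and without control replicate 4, 5 higher and 4 lower. With array weights 6 were higher and 5 lower. In others the lower probes stayed more numerous. Quantile normalization and median centring each gave 2 higher and 7 lower, and normexp and the deposited table each 2 and 5. Without ZnO replicate 3 it was 1 higher and 5 lower. With the replicate block the counts were equal, 3 and 3. Shares over all probes were not taken for these settings. In these pools of cells, fewer cells of a kind and less RNA per cell cannot be told apart.

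The ZnO and control arrays did not overlap for 2 member probes that were higher on the ZnO arrays (Fmnl1 and 1 Tpm3 probe that passed the filter only through the ZnO arrays, 2.13%, all probes 3.80%) and for 6 that were lower there (Myo1c, Myo1e, Arpc4, Arpc1a, 1 Myo7a and 1 Actn4 probe, 6.38%, all probes 3.59%). With single ZnO arrays left out this count of 8 became 23, 15 and 16, and after centring on spike-in spots it was 0. Fewer arrays separate more easily, and shares over all probes were not taken for these settings. The median log2 fold change over the 69 member genes was -0.03 (all genes tested 0.00), with 24 above and 45 below 0 (65.2% below, all genes tested 51.6%). With spike-in centring 23.2% of member genes and 23.7% of all genes tested were below 0, and with median centring 79.7% and 65.0%. The fold changes of 58 member genes (84.1%, all genes tested 84.3%) were within 0.20 log2 units of 0. For 59 member genes (85.5%, all genes tested 82.8%) the 95% interval lay inside a fold of 1.5 in either direction. The other 10 genes, whose intervals reached past that fold, were Acta1, Acta2, Actg1, Fmn1, Cfl2, Coro1a, Myh14, Myl9, Myo1c and Myo1e.

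**Figure D2:**
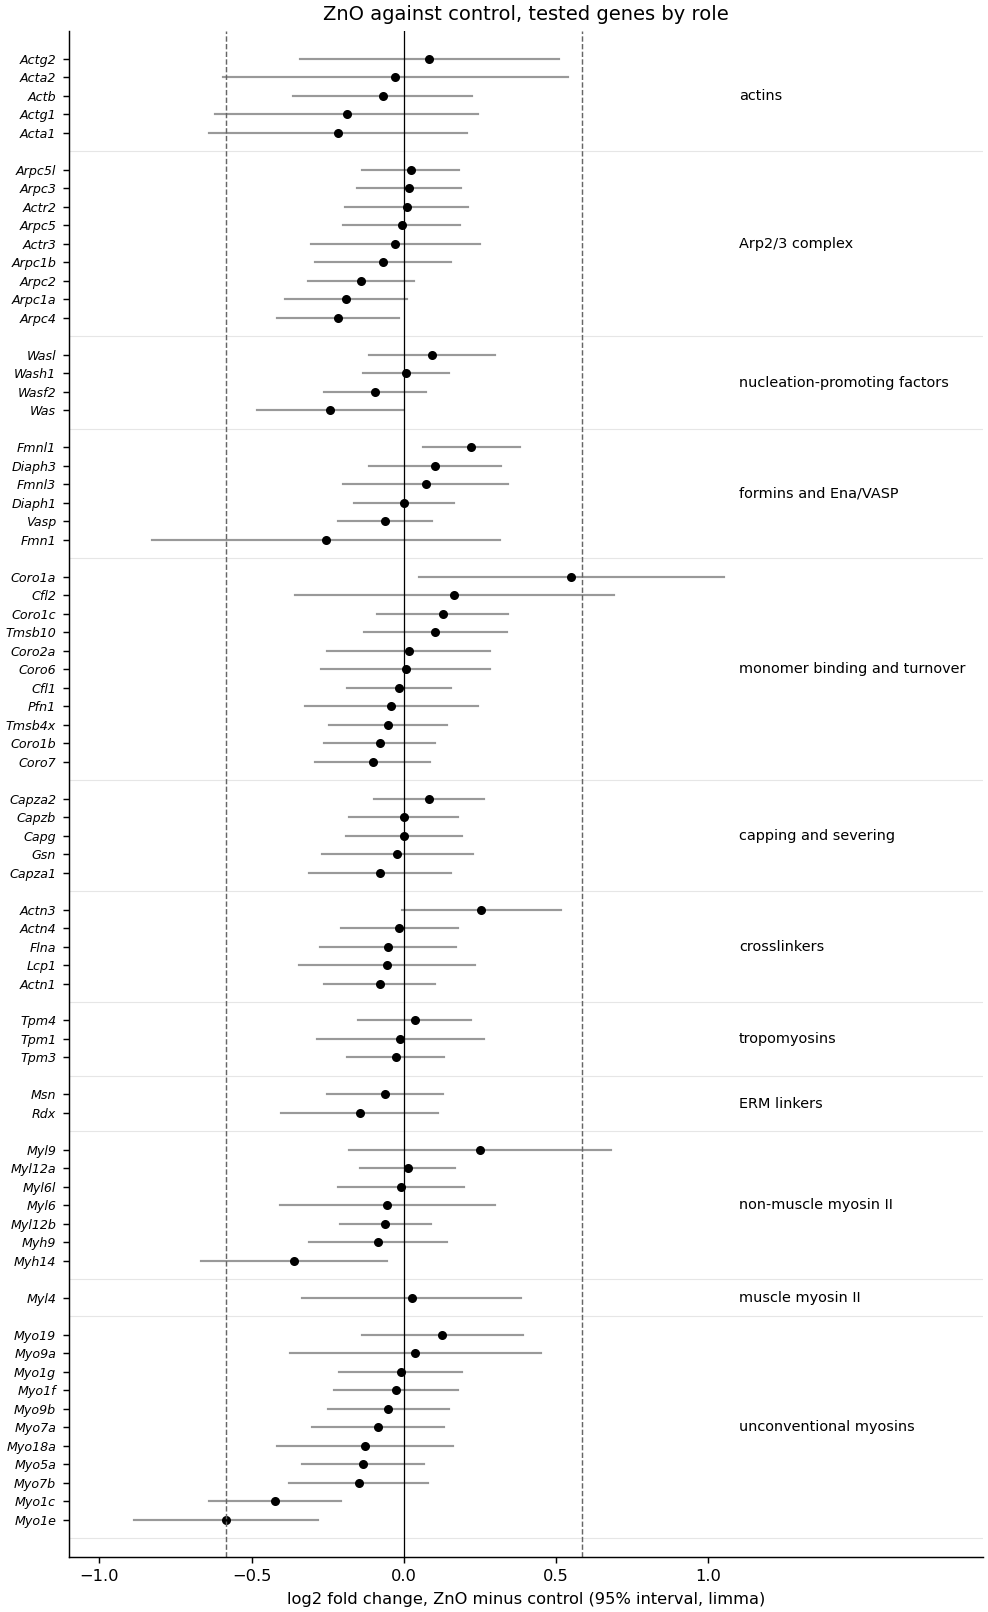
log2 fold change, ZnO minus control (x axis), of the 69 tested member genes (y axis), grouped by role, with 95% intervals from limma (grey lines); dashed lines mark a fold of 1.5. The points lie between -0.58 (Myo1e) and 0.55 (Coro1a), and 59 intervals stay between the dashed lines.

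Among the actins, the cytoplasmic Actb and Actg1, which form the filaments of non-muscle cells, had overlapping arrays in ZnO and control cells. Actb had 6.48, 6.20 and 6.21 log2 units in ZnO replicates 1 to 3, against 6.21, 6.25, 6.36 and 6.64 in control replicates 1 to 4. The arrays overlapped, and the difference was -0.07 (95% interval -0.36 to 0.22). The pair of Actg1 probes shown above gave a difference of -0.19 (interval -0.62 to 0.24) for the probe on chromosome 10 and 0.06 (interval -0.27 to 0.39) for the probe placed on chromosome 13, a position other than that of the gene, with control replicate 4 highest of the control arrays for both. Acta1 encodes the actin of skeletal muscle. Its probe was well above background on 1 of 3 ZnO arrays and on 4 of 4 control arrays, with -5.78, -5.98 and -5.52 log2 units in ZnO cells, against -5.89, -5.70, -5.39 and -5.21 in control cells. ZnO replicates 1 and 3 lay within the control range and replicate 2 just below it, and the difference was -0.22 (-0.10 without control replicate 4 and -0.34 without ZnO replicate 3). The probe entered the tests only through the control arrays, where it was higher, so this difference is given as a description. The smooth muscle actins Acta2 and Actg2 were well above background on every array, with differences of -0.03 and 0.08. The Acta2 probe has no mapped position in the files, and the 2 Actg2 probes share 56 bases and count as nearly the same measurement.

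All 9 Arp2/3 genes were tested, and for all of them the 95% interval stayed inside a fold of 1.5. The fold changes ranged from -0.22 to 0.02 with a median of -0.03. The 3 lowest of these 9 were Arpc4, Arpc1a and Arpc2. Arpc4 had -0.10, 0.05 and 0.10 log2 units in ZnO cells, against 0.10, 0.27, 0.22 and 0.33 in control cells. All ZnO arrays were below all control arrays, ZnO replicate 3 by very little, and the difference was -0.22 ± 0.09 (SE, adjusted p = 0.822). Arpc1a had -0.23, -0.25 and -0.25 log2 units in ZnO cells, against -0.16, -0.17, 0.01 and 0.10 in control cells. These arrays did not overlap either, but its second probe overlapped and gave -0.11 in place of -0.19. Arpc2 had 2.11, 2.23 and 2.11 log2 units in ZnO cells, against 2.19, 2.36, 2.35 and 2.26 in control cells, a difference of -0.14 with 1 ZnO array inside the control range. Arpc1b, which pairs with Arpc1a as an alternative subunit, differed by -0.07, and Actr2 and Actr3, the actin-like subunits that form the new filament's base, by 0.01 and -0.03. Actr3 was lowest on ZnO replicate 1 (2.60) and otherwise lay at 2.97 and 3.00 in ZnO cells, against 2.77 to 3.03 in control cells.

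Of the 6 activators of the complex, Was, Wasl, Wasf2 and Wash1 were tested. Was encodes WASP, the activator of blood cells that acts downstream of Cdc42. It had -3.88, -4.06 and -4.04 log2 units in ZnO cells, against -3.65, -3.92, -3.59 and -3.86 in control cells. ZnO replicates 2 and 3 were below all control arrays and replicate 1 was not, and the difference was -0.24 ± 0.10 (SE, adjusted p = 0.836). It was -0.15 with normexp and -0.14 with the deposited table. The other 3 lay closer to 0. The widely expressed Wasl (N-WASP) differed by 0.09, Wasf2 (WAVE2, which acts with Rac in the leading edge) by -0.10, and Wash1, named Washc1 in the current annotation and acting on endosomes, by 0.01.

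Among the formins, Fmnl1, a formin of blood cells, was higher on every ZnO array. It had 1.53, 1.44 and 1.52 log2 units in ZnO cells, against 1.30, 1.31, 1.18 and 1.31 in control cells. The groups did not overlap, the spread inside each was small, and the difference was 0.22 ± 0.07 (SE), a fold of 1.17 (interval 1.04 to 1.30), with an adjusted p of 0.726. Its relative Fmnl3 differed by 0.07 with overlapping arrays. Fmn1 had the largest fold change of the group in size, -0.26, and also the widest interval (-0.83 to 0.32). It had -4.79, -5.58 and -5.38 log2 units in ZnO cells, against -5.43, -5.13, -4.81 and -4.61 in control cells. Its fold change was -0.49 without ZnO replicate 1, -0.09 without ZnO replicate 2, -0.40 without control replicate 1, -0.13 without control replicate 4 and -0.07 with the deposited table, so its rank rests on single arrays. Diaph1 (mDia1) differed by 0.00 and Vasp, which lengthens filaments at the leading edge, by -0.06. Diaph3 had 3 tested probes with differences of 0.32, 0.10 and -0.09, and the first overlapped through control replicate 4. Evl, a relative of Vasp, was well above background on 0 of 3 ZnO arrays and 2 of 4 control arrays and was not tested.

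Of the proteins that hold monomers or take filaments apart, Coro1a had the highest fold change of all members. Coro1a is the coronin of blood cells and binds the Arp2/3 complex. It had 2.13, 2.54 and 2.76 log2 units in ZnO cells, against 1.77, 2.12, 1.54 and 2.29 in control cells. ZnO replicates 2 and 3 were above all control arrays, ZnO replicate 1 lay below control replicate 4, and both groups were spread widely (SD 0.32 in ZnO cells and 0.34 in control cells). The difference was 0.55 ± 0.22 (SE), a fold of 1.46 (interval 1.03 to 2.07), with an adjusted p of 0.822. The other coronins were nearer 0 at their brightest probes. Coro1c differed by 0.13, Coro1b by -0.08, Coro2a by 0.02, and Coro7, which works at the Golgi, by -0.10. The second probes of Coro7 and Coro2a had the opposite sign, 0.15 (interval -0.68 to 0.98) and -0.20 (interval -0.75 to 0.36). Pfn1 (profilin, which feeds monomers to formins), Cfl1 (cofilin, which severs filaments) and Tmsb4x (thymosin β4, which holds monomers) differed by -0.04, -0.02 and -0.05. The 3 Tmsb4x probes gave -0.05, 0.00 and 0.01, but 1 has no mapped position and the other 2 lie on chromosomes 5 and 10, while the gene is on X, so copies of its sequence may be read too. Tmsb10 was tested through 1 probe, which differed by 0.10. Its overlapping neighbour, moved by 17 bases, was well above background on none of the 7 arrays.

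All 5 tested proteins that cap or cut filaments had intervals inside a fold of 1.5. Capza2, a subunit of capping protein, had 2.75, 2.86 and 2.92 log2 units in ZnO cells, against 2.77, 2.83, 2.80 and 2.64 in control cells. Both groups overlapped, with a difference of 0.08 that ran from 0.04 to 0.13 with single arrays left out. Capza1 and Capzb differed by -0.08 and 0.00, Capg, a gelsolin relative of macrophages that caps without cutting, by 0.00, and Gsn (gelsolin) by -0.02.

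The crosslinkers of non-muscle cells were equally close. Actn1, an α-actinin of stress fibres and adhesions, had 0.15, -0.03 and 0.09 log2 units in ZnO cells, against 0.26, 0.09, 0.08 and 0.17 in control cells, a difference of -0.08 (interval -0.26 to 0.10). Flna (filamin A) differed by -0.05 and Lcp1 (L-plastin, the bundling protein of leukocytes) by -0.06. Actn4 differed by -0.02, with -0.12 at its second, dimmer probe. Actn3, the α-actinin of fast skeletal muscle, was well above background on every array. It had -4.33, -4.56 and -4.39 log2 units in ZnO cells, against -4.59, -4.54, -4.65 and -4.93 in control cells. ZnO replicate 2 lay just below control replicate 2, and the difference was 0.25 ± 0.11 (SE, adjusted p = 0.851). It was 0.08 with normexp, 0.12 with the deposited table and 0.13 with array weights. Among the striated muscle markers, Tnnt2 (cardiac troponin T) differed by 0.63 (adjusted p = 0.528), and the other 4 tested differed by 0.04 to 0.07. Unlike for Actn3, the ZnO arrays of Tnnt2 were all above the control arrays. Their part in the value of Actn3 was not tested.

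**Figure D3:**
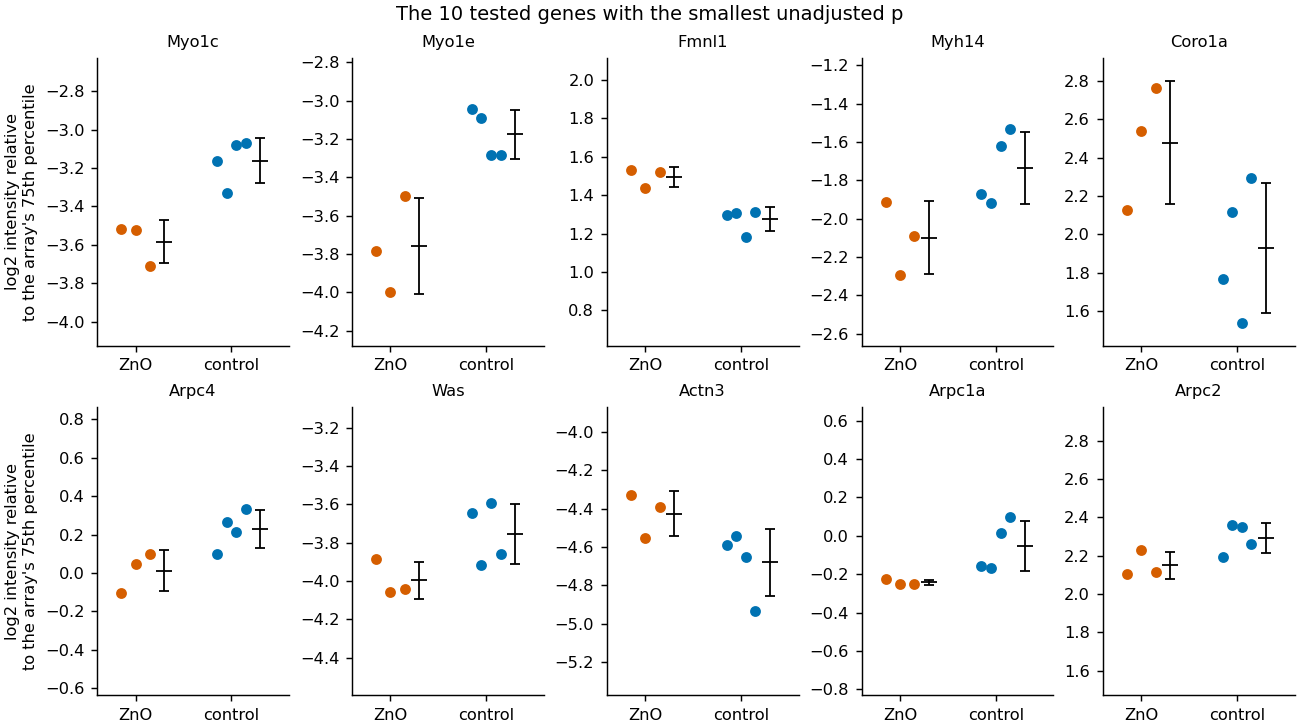
Log2 units, as defined in the text (y axes, each spanning 1.5 of them), of the 10 tested genes with the smallest unadjusted p, for 3 ZnO arrays (orange, left) and 4 control arrays (blue, right), with mean and SD (black). The arrays do not overlap for Myo1c, Myo1e, Arpc4 and Arpc1a, lower on the ZnO arrays, and for Fmnl1, higher there.

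Tropomyosins wind along filaments and set which motors and severing proteins may bind. Tpm3 and Tpm1 are read by several probes, at different positions in the files. The brightest Tpm3 probe had 5.15, 5.29 and 5.27 log2 units in ZnO cells, against 5.21, 5.31, 5.25 and 5.28 in control cells, a difference of -0.03 (interval -0.19 to 0.13). Over the 6 tested Tpm3 probes the differences ran from -0.12 to 0.34, the widest range of any member with several tested probes. At the upper end, A_44_P1102818, designed on a predicted transcript, had -4.89, -5.07 and -4.83 log2 units in ZnO cells, against -5.28, -5.12, -5.16 and -5.54 in control cells. The arrays did not overlap, and the probe was well above background on 3 of 3 ZnO and 3 of 4 control arrays. It entered the tests only through the ZnO arrays, where it was higher, so the difference of 0.34 is given as a description. At the lower end was the probe placed on the mitochondrial chromosome. The 4 Tpm1 probes differed by -0.06 to 0.05, and 2 of them share 58 bases. Tpm4 had -0.01, 0.13 and 0.08 log2 units in ZnO cells, against 0.08, 0.10, 0.07 and -0.11 in control cells, a difference of 0.04.

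**Figure D4:**
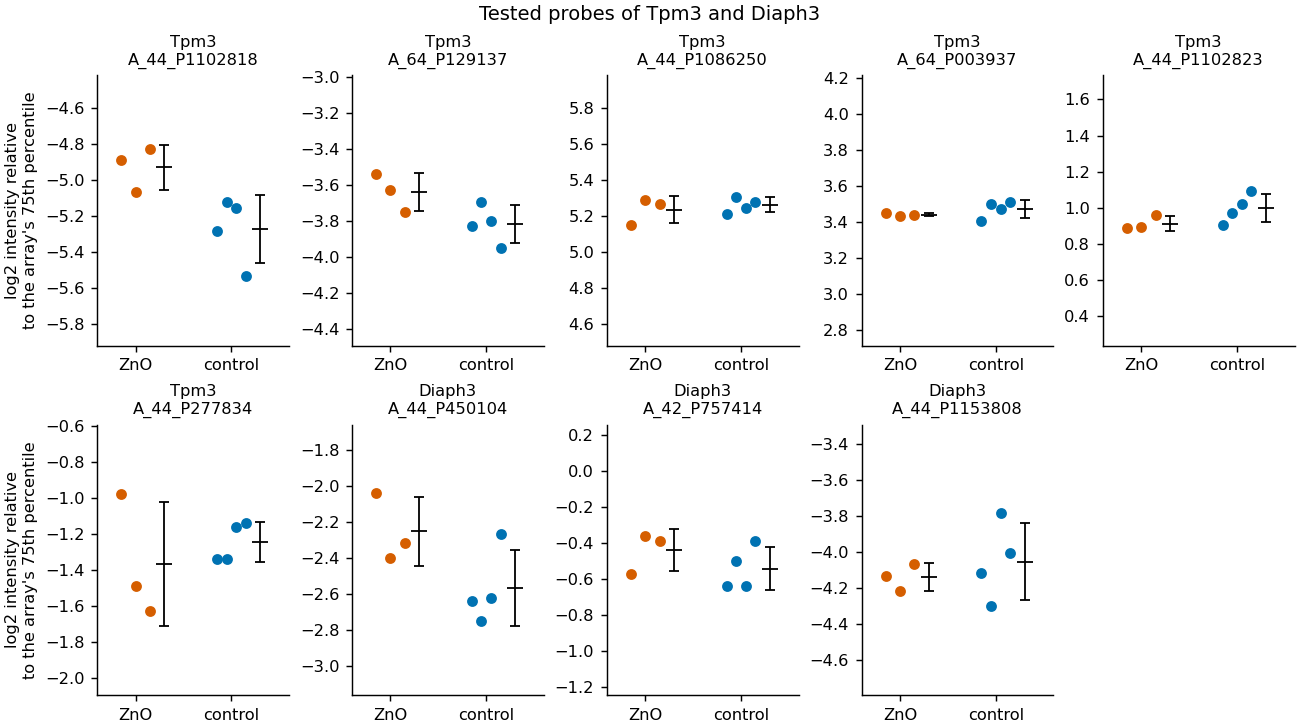
Log2 units, as defined in the text (y axes, each spanning 1.5 of them), of the 6 tested probes of Tpm3 and the 3 of Diaph3, for 3 ZnO arrays (orange, left) and 4 control arrays (blue, right), with mean and SD (black). The groups separate for A_44_P1102818 of Tpm3 only (difference 0.34), and the brightest Tpm3 probe, A_44_P1086250, differs by -0.03.

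The ERM proteins tie filaments to the plasma membrane. Msn (moesin, the form of leukocytes) differed by -0.06. Rdx (radixin) had -0.13, 0.17 and 0.11 log2 units in ZnO cells, against 0.17, 0.38, 0.20 and 0.03 in control cells, a difference of -0.14 (interval -0.40 to 0.11) with ZnO replicate 1 lowest of all arrays. It was -0.05 without ZnO replicate 1 and -0.08 without control replicate 2.

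Non-muscle myosin II contracts filament bundles. Myh9, the heavy chain IIA of blood cells, had 3.72, 3.73 and 3.91 log2 units in ZnO cells, against 3.82, 3.86, 3.75 and 4.06 in control cells, a difference of -0.08. Myh14, the heavy chain IIC, had -1.91, -2.29 and -2.09 log2 units in ZnO cells, against -1.87, -1.92, -1.62 and -1.53 in control cells. ZnO replicates 2 and 3 were below all control arrays, ZnO replicate 1 was above control replicate 2 by very little, and the difference was -0.36 ± 0.13 (SE), a fold of 0.778 (interval 0.630 to 0.961, adjusted p = 0.799). The light chains Myl12a, Myl12b and Myl6 differed by 0.01, -0.06 and -0.05, and Myl9 by 0.25 with an interval from -0.18 to 0.68. The probe named Myl6l lies on chromosome 7 and carries a symbol that is not in the current annotation. It differed by -0.01, and since the name is that of a near copy of Myl6 the 2 may not be told apart.

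Of the 16 muscle myosin II genes only Myl4, the light chain of atrial muscle, was tested. It had -4.05, -4.02 and -3.80 log2 units in ZnO cells, against -3.93, -4.03, -3.66 and -4.32 in control cells. The difference was 0.03, and the Myl4 probe has no mapped position. Myh3, the embryonic heavy chain, was well above background on 1 of 3 ZnO arrays and 3 of 4 control arrays. Myl2, the ventricular light chain, was so on ZnO replicate 1 alone, with -4.37 log2 units against -7.90 and -6.40 on the other ZnO arrays and -8.29 to -7.53 on the control arrays. The other 13 genes of the role were well above background on no array.

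Unconventional myosins work as single motors on membranes and organelles. Of the 11 tested, 9 had a fold change below 0, with a median of -0.09. Of all genes tested 51.6% were below 0, and 23.7% with spike-in centring, which moved all values up alike. The count below 0 among these 11 myosins was not taken under other centring. The lowest 2 were class I myosins, which link filaments to membranes. Myo1e, a long-tailed form known from podosomes and phagocytic cups, had -3.78, -3.999 and -3.50 log2 units in ZnO cells, against -3.05, -3.09, -3.28 and -3.29 in control cells. All ZnO arrays were below all control arrays, and the difference was -0.58 ± 0.13 (SE), a fold of 0.667 (interval 0.542 to 0.822), with an adjusted p of 0.473. Myo1c, a short-tailed form that works in membrane traffic, had -3.52, -3.52 and -3.71 log2 units in ZnO cells, against -3.16, -3.33, -3.08 and -3.07 in control cells. Its groups did not overlap either, and the difference was -0.42 ± 0.09 (SE), a fold of 0.746 (interval 0.642 to 0.866), with the same adjusted p of 0.473. Both intervals leave out 0 for the single gene, but neither gene passed the test over all probes. Both probes were dim, at -3.05 log2 units or lower on every array. Their fold changes were smaller in size with normexp and with the deposited table. Under other processing Myo1e ran from -0.72 (array weights) to -0.41 (normexp), and Myo1c from -0.48 to -0.29 (normexp). With the deposited table they differed by -0.42 and -0.31. Of the class I myosins of blood cells, Myo1f, also long-tailed, differed by -0.03 (interval -0.23 to 0.18). Myo1g differed by -0.01 (interval -0.21 to 0.19). The fold changes of these 4 myosins were not tested against each other.

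At their brightest tested probes, the remaining motors lay between -0.15 and 0.13. Myo5a, which carries vesicles, differed by -0.13, Myo9b by -0.05, Myo18a by -0.13, Myo7b by -0.15 and the mitochondrial Myo19 by 0.13. Myo7a was read by 2 probes. The brighter differed by -0.09, and the other had -0.53, -0.52 and -0.44 log2 units in ZnO cells, against -0.40, -0.26, -0.28 and -0.04 in control cells, with no overlap and a difference of -0.25 (unadjusted p = 0.030, limma). Myo9a was fitted without control replicate 2, whose spot was marked as an outlier, and differed by 0.04. Below the filter, Myo10 read -5.51 log2 units on ZnO replicate 2 against -8.00 and -8.32 on the other ZnO arrays, and this reading stands on 1 array.

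Single arrays stood lowest or highest for many members. Over the 93 member probes with a value on every array, ZnO replicate 1 was the lowest of the 7 arrays for 22 (23.7%, all probes 18.2%) and control replicate 4 the highest for 35 (37.6%, all probes 21.5%). ZnO replicate 1 was the lowest for Actr2, Actr3, Arpc5, Lcp1, Pfn1 and Rdx, and control replicate 4 the highest for Actb, Myh9, Flna, Myo5a and Capg. Without control replicate 4 the differences of Actb and Tpm4 changed sign, to 0.02 and -0.01.

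Genes around the filament machinery were read from further lists. Of 17 adhesion and podosome genes 14 were tested and none passed at an adjusted p under 0.05. Among them Hcls1, the leukocyte relative of cortactin, differed by -0.21 (adjusted p = 0.772), and Ptk2b, a focal adhesion kinase of leukocytes, differed by 0.16 (adjusted p = 0.830). Of 14 genes of SRF and MRTF transcription, 12 were on the array and 5 tested, with differences of -0.17 to 0.06. All 10 tested tubulins, the subunits of microtubules, had an adjusted p over 0.05, with a median of 0.09 and a range of -0.07 to 0.20.

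Promoters were searched for the CArG box, the sequence that SRF binds in many actin and muscle genes. RefSeq promoters of 300 bases (250 before and 50 after the start, GRCr8) were matched by symbol for 93 of the 107 genes, 102 promoters in all. The box, read on both strands, was in 6 of them (5.88%), and in 548 of all 33469 promoters (1.64%). The members were Acta1, Actg1, Myo1e, Myl3, Myh4 and Myh15, of which the first 3 were tested. For these, windows of 30 bases are shown on the strand of the gene, with the box in capitals.
Acta1, chr19:68784269-68784298, minus strand: tgcccaacacCCAAATATGGcttgggaagg
Actg1, chr10:106121022-106121051, minus strand: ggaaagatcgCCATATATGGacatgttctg
Myo1e, chr8:79768722-79768751, plus strand: gctgaattctCCATTTATGGacagattgcc
The box began 94, 90 and 96 bases before the start in Acta1, Actg1 and Myo1e. A match in letters is not a measured site.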

How the data were processed

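The authors hybridised Cy3-labelled RNA to one-colour Agilent rat arrays and read them with Agilent Feature Extraction 11.0.1.1; their text names percentile normalization in GeneSpring. The deposited array files hold the processed intensity of each spot, background-subtracted and not scaled between arrays. The deposited series table holds the scanner's median spot intensity (100% of spots equal) and served as an alternative. Here, processed intensities were divided by their 75th percentile on each array and put on a log2 scale, outlier spots were left out, and spots of a probe were averaged. A gene takes its brightest tested probe. ZnO and control were compared with limma 3.58.1 in R 4.3.3 (lmFit, eBayes, Benjamini-Hochberg over 20050 probes, threshold 0.05); intervals and standard errors are limma's. The fitting script was tested on simulated data. Of the 151 member probes, 133 were matched to RefSeq (GRCr8). Tables and plots used Python 3.11.15, pandas 2.3.3, numpy 2.4.6, matplotlib 3.10.9, and version 1.17.8 of data.table. Members and lists were chosen with earlier results of these data known. Named genes were any member called, the 10 smallest p, the largest fold change in each role, Acta1, Actn1 and Actb, members whose probes differ by over 0.5 log2 units, and members detected whole in 1 group only; others were chosen after their values were seen. Alternatives were other scalings, filters, variance models, blocks, and each array left out. Some members and 1 list are not reported here.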

Additional observations from a re-analysis of the deposited data

Results flagged for a closer look

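For 2 of the 18 named genes, 1 control array stood far from the other 3 by the gap to its neighbour as a share of the range, which happens by chance in about 1 in 20 groups. Fmnl1 had 1.18 log2 units on control replicate 3, below the other control arrays at 1.30 to 1.31 (gap 0.864 of the range). Tpm4 had -0.11 log2 units on control replicate 4, below the others at 0.07 to 0.10 (gap 0.836 of the range). The 3 ZnO arrays were too few for this rule.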

How the results depend on the processing

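Under all 20 alternatives no member probe was called at an adjusted p under 0.05, wherever that count was taken, and the named genes kept their side of the threshold (lowest adjusted p 0.165, Myo1e). Over all probes the count of 10 became 5 with spike-in centring, 5 with no filter on dim probes, 4 with the replicate block and 1 with slide row as a block, an alternative chosen after seeing the data. The count of 9 member probes at an unadjusted p under 0.05 became 0 with spike-in centring, 3 with slide row as a block and 5 to 9 with single arrays left out (5 without control replicate 3). The 8 member probes whose groups do not overlap became 0 with spike-in centring, 5 with the deposited table and 11 to 23 with single arrays left out (23, 15 and 16 without ZnO replicates 1, 2 and 3). Shares over all probes were not taken for either of these counts under the alternatives. The median log2 fold change of member genes moved to -0.0642 with median centring and 0.0615 with spike-in centring, which shift all probes alike, and the number of intervals inside a fold of 1.5 fell to 0 with spike-in centring. The median log2 fold change lay between -0.04 and -0.02 with single arrays left out.

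Among named genes 13 of 359 values changed sign, all near 0. Myl4 became -0.0113 with median centring, -0.0149 with normexp, -0.0013 with array weights and -0.0872 with the replicate block, and ran from -0.0872 (without control replicate 4) to 0.1349 with single arrays left out, ZnO replicate 3 also turning its sign (-0.0512). Tpm4 became -0.0022 with median centring and -0.0129 with the replicate block, and ran from -0.0129 (without control replicate 4) to 0.0739. Actb became 0.0186 with spike-in centring and 0.0208 with the replicate block, and ran from -0.1615 to 0.0208 (without control replicate 4). Actn1 became 0.009 with spike-in centring. Control replicate 4 has no ZnO array of its number. For Myl4, Tpm4 and Actb the replicate block therefore repeats the value without that array and is no separate support. The cause of the other sign changes was not tested. Since spike-in centring moved all values up alike, it shrank Was, Arpc4, Arpc1a and Arpc2 to -0.15, -0.13, -0.10 and -0.05. By the same shift it raised Fmnl1, Coro1a and Actn3 to 0.31, 0.64 and 0.34. The deviations of arrays with the same replicate number in both groups had correlations of -0.09, 0.21 and -0.23. For arrays of different numbers the correlations ran from -0.40 to 0.33. Whether the numbers pair the samples cannot be told from these values, and the main fit used no pairing. A slide or scan block could not be fitted, since there was 1 slide and 1 scan. Precision is limited by the 3 and 4 arrays, and probes near background had only a small margin over it.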
